A study of Mus musculus with 24 samples.

Results

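Brown adipose tissue from mice without Nur77 was set against wild-type brown adipose tissue on 4 arrays, chosen by their titles from the 24 arrays of the series, which holds 4 for each of 6 organs. Nur77 is the protein of Nr4a1. The mutant animals are Nur77-/- and the reference animals Nur77+/+. The sources used here name no strain, age, sex, housing temperature, feeding state or treatment, and do not say which part of the gene was disrupted. Each array set cDNA of a mutant pool against cDNA of a wild-type pool of the same tissue. The design text puts 7 mice into each pool, but 6 animals are named for the control pool in the labelling protocol, and both numbers stand unresolved. The mutant pool carried the dye Cy5 on replicates 1 and 2 and the dye Cy3 on replicates 3 and 4. The 4 arrays are therefore repeat hybridisations of 1 pair of pools, and the p-values below measure the error between hybridisations and not the spread between animals.

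The values are the authors' deposited ratios, read as log2 of mutant over wild type, so that a value of -1 stands for a level 2-fold lower in the mutant pool. This direction is likely but not stated. It rests on Nr4a1, which was below 0 on all 4 arrays in both dye orientations. The sign of Nr4a1 is therefore part of this reading and no separate result. All 1003 extreme values described under the processing then have the sign of Cy5 over Cy3. Under the opposite reading all would have that of Cy3 over Cy5. They therefore bear on whether the arrays share 1 direction and not on which it is. Of 16148 rows (genes with 1 symbol, or single probes without one), 15223 had a value on at least 3 of the 4 arrays and in both dye orientations and were tested. They comprise 9362 of 9834 genes with a symbol and 5861 probes without one. Each array gave between 16521 and 19340 values. A ratio shows whether a gene differed between the pools and not how much RNA was there, so the identity of the tissue could not be checked from its marker genes, and fewer cells of a type cannot be told apart from less RNA per cell.

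Brown adipose tissue burns fatty acids and glucose to make heat. Uncoupling protein 1, encoded by Ucp1, lets protons pass back across the inner mitochondrial membrane without making ATP, and noradrenaline from sympathetic nerves switches the tissue on through cyclic AMP. Nr4a1, Nr4a2 and Nr4a3 encode the NR4A family of orphan nuclear receptors, transcription factors that are induced within a short time by cyclic AMP, cold and beta-adrenergic stimulation in this tissue. They bind DNA as monomers at the NBRE, the NGFI-B response element, with the letters AAAGGTCA.

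Few genes passed the test of a difference between the pools. Nr4a1 itself was 2.20-fold lower in the mutant pool, and P4ha1, Txnip and Jun were also lower. Ifi27l2a, an interferon-inducible gene, was 3.05-fold higher, and a probe without a gene symbol was higher too. These 6 of 15223 rows (0.0394%) passed limma's moderated test with Benjamini-Hochberg adjustment at a threshold of 0.05, 2 higher and 4 lower. Without adjustment, 225 rows were higher (1.48%) and 547 lower (3.59%), 5.07% in all. With 1 sign on every measured array there were 514 rows above 0 (3.38%) and 1680 below 0 (11.0%). The arrays were not centred in this test. The median of all rows was -0.07, 60.7% of rows were below 0, and replicate 3 had a median of -0.24. With centred arrays 5 rows passed the adjusted threshold, 3 higher and 2 lower. The test weighted each array by its estimated precision. Without these weights no row passed limma's adjusted threshold, although 104 had an unadjusted p under 0.05, and none passed without replicate 2, with 891 under 0.05 unadjusted. The count was 3 without replicate 1 and 3 without replicate 4. With the tissue fitted alone on its own 4 arrays no row passed. There 566 rows had a limma unadjusted p under 0.05 with a dye term and 475 without one.

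Nr4a1 is the disrupted gene, and its 1 probe gave log2 ratios of -1.04, -1.27, -1.19 and -1.045 on replicates 1 to 4. All lay within a narrow band well below 0, and the dye orientations overlapped. The fitted ratio was -1.14 ± 0.14 (SE, n = 4 arrays, 95% interval -1.44 to -0.84), with a limma adjusted p of 0.00232. Whether the probe lies inside the disrupted stretch is not stated, so the signal that remains shows neither intact nor partial transcript. The call was lost without array weights (-1.14, limma adjusted p = 1), with extreme values kept (adjusted p = 1) and without replicate 2 (-1.12, adjusted p = 0.105), and the size of the ratio moved little.

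The other family members gave no steady ratio. Nr4a2 was at -1.04 on replicate 2, with the mutant in Cy5, and at 1.03 and 2.24 on replicates 3 and 4, with the mutant in Cy3. Nr4a3 was at -3.40 and -0.33 on replicates 1 and 2 and at 1.94 on replicate 4. Both changed sign with the dyes, and the fitted ratios of 0.28 ± 0.31 and 0.37 ± 0.48 (SE, n = 3 arrays each) did not pass the test. Their 95% intervals, -0.43 to 0.99 and -0.67 to 1.41, include both directions.

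**Figure D1:**
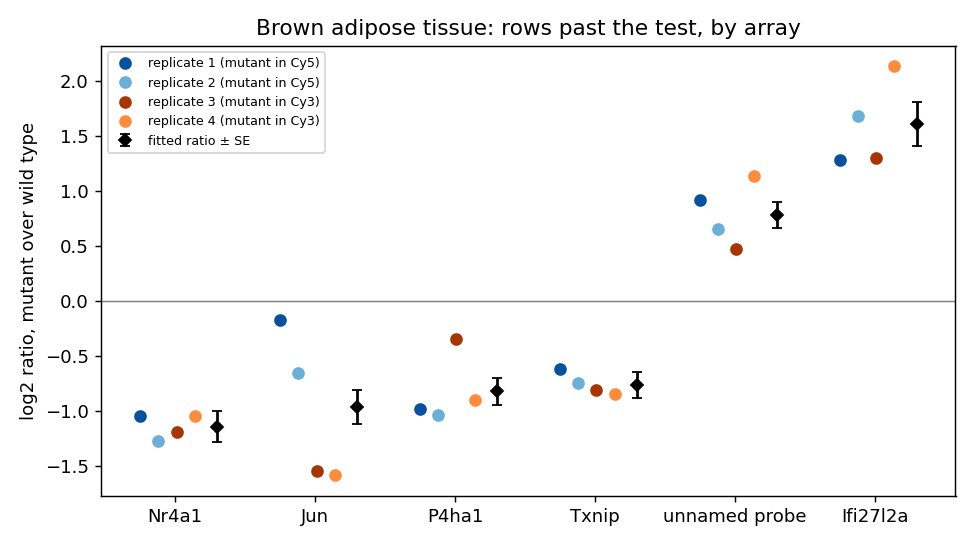
Log2 ratio of mutant over wild type (y axis) of the 5 genes and 1 unnamed probe past the test. Circles are single arrays, blue with the mutant in Cy5 and orange with the mutant in Cy3, and diamonds are the fitted ratios with their SE. The 4 Nr4a1 and the 4 Txnip values lie close together, while the Jun values range from -0.17 to -1.58.

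Ifi27l2a, a member of the interferon-inducible ISG12 family of small mitochondrial and membrane proteins, was measured by 1 probe at 1.28, 1.68, 1.30 and 2.13. Every array was more than 1 log2 unit above 0. The fitted ratio was 1.61 ± 0.20 (SE, n = 4 arrays), with a limma adjusted p of 0.00232. Without replicate 2 the call was lost (1.52, adjusted p = 0.126). No other gene of the list of interferon and histocompatibility genes passed. Of its 47 tested members, 18 were above 0 and 29 below, and the median ratio was -0.05, against -0.07 over all rows tested. Igtp, an interferon-induced GTPase named after its values were seen, was at -1.30, -0.76, -0.585 and -0.66, on the opposite side (-0.77 ± 0.21, SE; limma unadjusted p = 0.00391). Ifi27l2a was 1 of 2 list members with an unadjusted p under 0.05, where 5.07% of all rows had one. The probe without a symbol was at 0.92, 0.65, 0.47 and 1.14, above 0 on every array, with a fitted 0.78 ± 0.12 (SE, n = 4 arrays; limma adjusted p = 0.00821).

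Txnip encodes the thioredoxin-interacting protein, which binds thioredoxin and restrains glucose uptake. Its ratios of -0.615, -0.745, -0.81 and -0.84 were close together in both dye orientations, at a fitted -0.76 ± 0.12 (SE, n = 4 arrays; limma adjusted p = 0.00821). P4ha1 encodes a catalytic subunit of the prolyl 4-hydroxylase that modifies collagen. It was at -0.98, -1.03, -0.34 and -0.90, lowest in size on replicate 3, with a fitted -0.82 ± 0.12 (SE, n = 4 arrays; limma adjusted p = 0.00821). Both calls were lost when every array was centred on its median (limma adjusted p = 0.0661 for Txnip and 0.101 for P4ha1). The Txnip call was also lost without any 1 of the arrays (adjusted p = 0.0534 to 0.194), and the P4ha1 call without replicate 1, 2 or 4 (0.0644 to 0.178). In the list of 30 antioxidant genes, Txnip was the 1 past the adjusted test. Of the 30, 3 had an unadjusted p under 0.05, all lower, where 3.59% of all rows were. Txn1, thioredoxin itself, was at -0.26 ± 0.10 (SE; limma unadjusted p = 0.0208), and 12 of the 30 genes were above 0.

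Jun encodes a subunit of the AP-1 transcription factor. Its mean ratios over 2 probes were -0.17 and -0.65 with the mutant in Cy5, and -1.55 and -1.58 with the mutant in Cy3, so all were below 0 and the dye orientations did not overlap. The fitted ratio was -0.96 ± 0.15 (SE, n = 4 arrays; limma adjusted p = 0.0097). With the tissue fitted alone on its own arrays the call was lost. The ratio there was -0.99 ± 0.17 with a dye term (limma adjusted p = 0.908) and -0.99 ± 0.30 without one (0.947). The probes disagreed in size. One gave -0.06, -1.17, -2.32 and -2.68 on replicates 1 to 4, the other -0.275, -0.137, -0.77 and -0.48. Without a dye term the call was lost (limma adjusted p = 0.0895), as it was without replicate 2, 3 or 4 (0.131 to 0.247). With the recurring values described below left out, the ratio was -0.34 ± 0.10 (SE; limma adjusted p = 0.305). Among 19 immediate early genes, the genes switched on first after a stimulus, Jun was the 1 past the adjusted test. Of the 19, 3 had an unadjusted p under 0.05, all lower, where 3.59% of all rows were. The other two were Atf3, a stress-induced transcription factor, at -0.78, -0.33, -0.69 and -0.53, and Btg1, an antiproliferative gene, at -0.53, 0.06, -0.81 and -1.08. Zfp36, which encodes an RNA-binding protein that destabilises messages, stayed between -0.39 and -0.07 on every array. Fosb (-0.12 ± 0.23, SE) and Junb (0.00 ± 0.59, SE) had intervals that span 0, and the median of the list was -0.03.

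Promoter sequence was at hand for 4 of the 5 named genes past the test, and it is shown because all 4 were lower together. The sequences are the 250 bases before each gene start from RefSeq (GRCm38.p6), 5′ to 3′ along the gene. Short elements known from textbook promoters were searched on both strands, and capitals mark the matches described after the sequences.

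Nr4a1, chr15:101266596-101266845, + strand: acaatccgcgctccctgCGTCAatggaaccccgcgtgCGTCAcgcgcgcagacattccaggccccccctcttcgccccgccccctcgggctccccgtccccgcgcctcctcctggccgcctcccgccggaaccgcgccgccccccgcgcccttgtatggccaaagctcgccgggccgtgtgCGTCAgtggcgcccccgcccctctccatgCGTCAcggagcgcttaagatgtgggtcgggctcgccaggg
Jun, chr4:95052223-95052472, - strand: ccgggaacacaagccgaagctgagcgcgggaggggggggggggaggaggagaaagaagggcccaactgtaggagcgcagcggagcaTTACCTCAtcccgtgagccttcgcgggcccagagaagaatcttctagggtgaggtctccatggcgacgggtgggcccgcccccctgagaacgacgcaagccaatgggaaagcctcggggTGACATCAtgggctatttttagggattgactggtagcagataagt
Txnip, chr3:96557707-96557956, + strand: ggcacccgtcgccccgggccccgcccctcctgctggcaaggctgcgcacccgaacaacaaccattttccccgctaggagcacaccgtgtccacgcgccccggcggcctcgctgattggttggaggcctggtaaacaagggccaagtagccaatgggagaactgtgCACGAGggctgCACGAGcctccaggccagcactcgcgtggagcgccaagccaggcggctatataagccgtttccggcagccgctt
P4ha1, chr10:59323046-59323295, + strand: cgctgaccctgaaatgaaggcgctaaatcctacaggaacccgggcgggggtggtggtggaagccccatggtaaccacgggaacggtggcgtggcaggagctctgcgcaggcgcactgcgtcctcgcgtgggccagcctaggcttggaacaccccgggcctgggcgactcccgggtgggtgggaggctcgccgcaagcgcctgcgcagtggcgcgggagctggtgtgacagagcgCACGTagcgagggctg

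In the Nr4a1 promoter the capitals mark 4 copies of the half-site of the cyclic AMP response element, TGACG, all on the reverse strand and the nearest at position -40, counted from the gene start. Of 32851 RefSeq promoters, 17.8% hold at least 1 copy in the same window, and the share with 4 copies was not counted. In the Jun promoter they mark TGACATCA, the jun1 TRE, at -45 (in 2.93% of promoters) and TTACCTCA, the jun2 TRE, at -164 (in 0.728%). Both are elements through which AP-1 and ATF proteins act on Jun. In the Txnip promoter they mark the E-box-like letters of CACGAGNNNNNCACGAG, the carbohydrate response element, at -85. Txnip was the 1 promoter with these exact letters (0.00304%). The Jun and Txnip elements were written in the form known from the promoters of these genes. Their matches were therefore fixed by the choice of letters, and their shares are no test. In the P4ha1 promoter they mark ACGTG, the core of the hypoxia response element, on the reverse strand at -16, which 16.6% of promoters hold. Neither AAAGGTCA (in 1.34% of promoters) nor the half-site inside it, AGGTCA (in 14.0%), is in any of these 4 windows. The element marked in each promoter was picked for that gene, also in Nr4a1 and P4ha1. No share of a marked element is therefore a test. A match is a run of letters and not a measured site.

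The question whether these differences belong to brown adipose tissue was asked with the other 5 organs, which were compared in the same way. Ifi27l2a was near 0 or uneven elsewhere, at 0.18 ± 0.21 (SE) in heart, 0.07 ± 0.39 in lung, -0.02 ± 0.48 in skeletal muscle, 0.47 ± 0.28 in testis and -0.56 ± 0.51 in spleen. Jun lay between -0.35 ± 0.36 (skeletal muscle) and 0.04 ± 0.27 (lung). Txnip, P4ha1 and Nr4a1, in contrast, had fitted ratios below 0 in every organ. Txnip was at -0.66 ± 0.12 in heart and between -0.35 and -0.26 in the others. P4ha1 was at -0.39 ± 0.13 in heart, -0.39 ± 0.22 in lung, -0.35 ± 0.31 in spleen, -0.16 ± 0.29 in skeletal muscle and -0.06 ± 0.16 in testis. Nr4a1 was lower still in skeletal muscle (-1.74 ± 0.35) and nearer to 0 in testis (-0.16 ± 0.19).

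**Figure D2:**
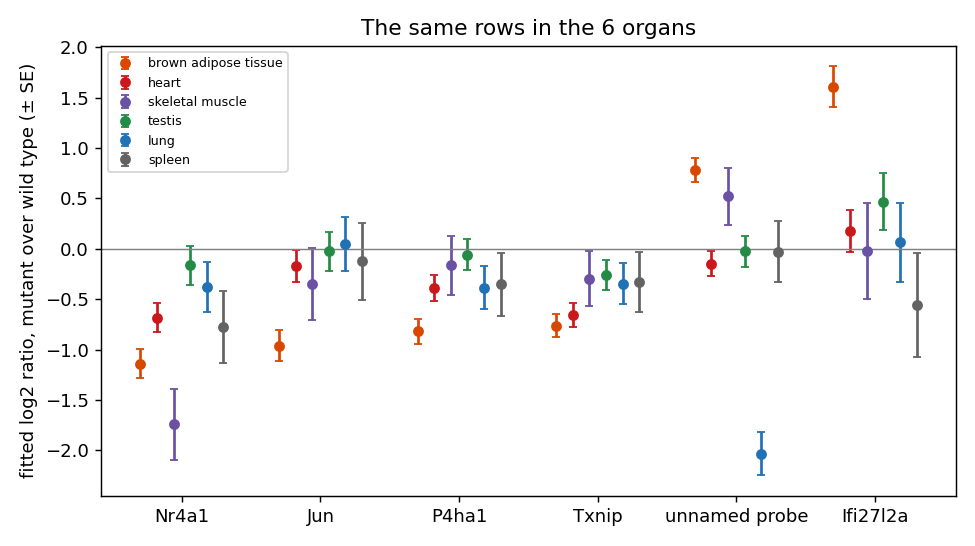
Fitted log2 ratio of mutant over wild type with its SE (y axis) of the same 6 rows in the 6 organs, each from 4 arrays or, for Nr4a1 in testis and skeletal muscle and Ifi27l2a in lung and testis, from 3. The Ifi27l2a point of brown adipose tissue stands at 1.61 above all others, and Nr4a1, P4ha1 and Txnip are below 0 in every organ.

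The ratio in brown adipose tissue minus the mean ratio of the other organs was tested on the 7553 rows measured in every organ, and 44 of them differed (0.583%), 9 higher in brown adipose tissue and 35 lower, 19 of them genes with a symbol. Ifi27l2a (difference 1.58 ± 0.25, SE; limma adjusted p = 0.00546) and Jun (-0.83 ± 0.18; limma adjusted p = 0.043) are among them, as is the unnamed probe (1.12 ± 0.14). The Jun difference passed in 5 of 23 alternative settings and ranged from -1.37 to -0.17 over them. It was lost without array weights, without a dye term, with centred arrays, without replicate 2, 3 or 4, and with recurring values left out (-0.24; limma adjusted p = 0.532). The count was 12 without replicate 2, 21 without replicate 1 or replicate 4, and 1 without array weights. These differences use the same brown adipose tissue arrays as the ratios above. In 8 of the 44 rows the brown adipose tissue ratio was the larger in size. Ctrl, a pancreatic protease (difference 1.77 ± 0.27; limma adjusted p = 0.00334), was at 0.12 in brown adipose tissue and at a mean of -1.65 elsewhere, reaching -6.02 in spleen. Zg16, a zymogen granule protein, was at 0.08 against -0.90. Glul (glutamine synthetase), Polr2f (an RNA polymerase subunit), Psmd13 (a proteasome subunit), Ago2 (the slicer of RNA interference) and Asic2 (an ion channel) lay between -0.21 and -0.18 here and between 0.48 and 0.74 elsewhere. Gemin2, of the splicing assembly complex, was at 0.22 against 1.03. Tnni2, the fast troponin I, was at 0.58 against -0.80.

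**Figure D3:**
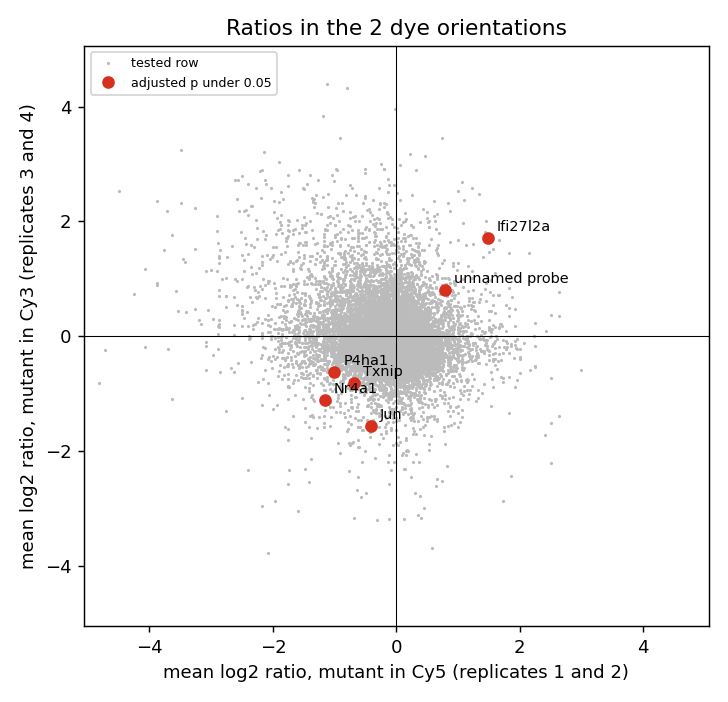
Mean log2 ratio of each tested row with the mutant in Cy5 (x axis, replicates 1 and 2) and with the mutant in Cy3 (y axis, replicates 3 and 4). The 15223 rows spread into all 4 quadrants, also those where the sign follows the dye. The 6 rows past the test, in red, lie in the quadrants where both orientations have 1 sign.

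The spread of the values sets how small a difference could be seen. Across probes, arrays with the same dye orientation correlated at Spearman rho of 0.128 and 0.204, and arrays of opposite orientation at -0.231 to -0.0337, as a description. The rows from the lower to the upper quartile had a ratio between -0.24 and 0.10, with a median SE of 0.305. Many values also recurred exactly, shared to 3 decimals by at least 10 probes of 1 array and at least 3 times as frequent as their neighbours. They made up 55.2%, 30.1%, 31.0% and 41.0% of the values of replicates 1 to 4, and 81.8%, 74.7%, 59.2% and 66.6% of the values above 1 in size. Between 61.5% and 73.2% of them lay, after subtraction of the most frequent value of the array, within 0.0015 of the log2 of a ratio of whole numbers up to 10, against 0.77% to 1.35% of the other values. Nr4a1 and Txnip held no recurring value. Ifi27l2a held 1 of 4, P4ha1 2 of 4 and Jun 4 of 8.

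Apart from Ifi27l2a, the genes with the farthest ratios of 1 sign did not pass the test. Above 0 these were Xrcc6, a DNA end-binding protein (2.01 ± 0.41, SE), Surf6, a nucleolar protein (1.85 ± 0.59), Fam83h (1.79 ± 0.62), Adam23 (1.68 ± 0.48), Pdgfrl (1.645 ± 0.30), Dbf4, an activator of DNA replication (1.56 ± 0.24), Rragd, a GTPase of the mTORC1 pathway (1.52 ± 0.53), Wdr82 (1.52 ± 0.72) and Kcnj3, a potassium channel (1.515 ± 0.26). Below 0 they were Troap (-2.77 ± 0.40), Wnt7b, a secreted ligand (-2.55 ± 0.74), Erg28 (-2.38 ± 0.48), Yrdc (-2.27 ± 0.71), Creb3l4 (-2.20 ± 0.77), Rapsn, which clusters acetylcholine receptors (-2.15 ± 0.56), Apoa1, the main protein of high-density lipoprotein (-2.065 ± 0.80), Mettl14, of the RNA methyltransferase complex (-1.98 ± 0.49), Camp, cathelicidin (-1.945 ± 0.78), and Prmt1, an arginine methyltransferase (-1.77 ± 0.55). Of these 19 genes, 15 had a value on only 3 arrays, and 43 of their 65 probe values were recurring ones. Dbf4 shows how uneven they were, with 0.33 and 0.31 on replicates 1 and 2 and 2.50 and 3.30 on replicates 3 and 4.

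When recurring values were left out, a choice made after seeing the data, 8589 rows could be tested and 22 of them passed (0.256%), 6 higher and 16 lower, 12 of them with a gene symbol. Nr4a1 (-1.11 ± 0.11, SE; limma adjusted p = 0.000263), Txnip (-0.76 ± 0.09; adjusted p = 0.000929), Ifi27l2a (1.415 ± 0.18, from 3 arrays; adjusted p = 0.00242) and the unnamed probe passed again. P4ha1 had too few values left to be tested, and Jun did not pass. Genes that passed here and not with all values were Casq1 and Myh1, given with the muscle genes below, and 7 that were lower. Timp3, an inhibitor of metalloproteinases, was at -0.47, -0.48, -0.85 and -0.68 (adjusted p = 0.00785). Mknk2, a kinase of the translation factor eIF4E, was at -0.53, -0.49, -0.95 and -0.475 (adjusted p = 0.00587). All 4 arrays were below 0 in both. Dnaja1 and Hsph1 are chaperones and are given with their list. Klkb1, which encodes plasma prekallikrein, was at -0.41, -0.75, -0.89 and -0.57 (adjusted p = 0.034). Vim, the intermediate filament vimentin, was at -0.39, -0.25, -0.82 and -0.36 (adjusted p = 0.034), and Ccdc3 at -0.47, -0.37, -0.86 and -0.59 (adjusted p = 0.0194). In Timp3, Mknk2, Klkb1, Vim and Ccdc3 replicate 3 was the lowest array. Without array weights none of the 8589 rows passed limma's adjusted threshold (92 with an unadjusted p under 0.05), and the count was 6 without replicate 1, 5 without replicate 3, 11 without replicate 2 and 16 without replicate 4.

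No gene that defines brown fat passed the test. Of 21 tested genes of thermogenesis and brown fat identity, none passed limma's adjusted threshold and none had an unadjusted p under 0.05, 10 were above 0 and 11 below, and their median was -0.05. With recurring values left out, 2 of 16 were lower at an unadjusted p under 0.05, Cox7a1 and Fabp3, where 5.69% of all rows were. With the arrays centred as well, none was lower and 2 were higher. Ucp1 was at 0.405, 0.37, 0.01 and 0.23, all on the upper side, with a fitted 0.29 ± 0.22 (SE, n = 4 arrays, 95% interval -0.17 to 0.74; limma adjusted p = 0.999). Cidea, a lipid droplet protein abundant in brown fat, was near 0 with the mutant in Cy5 (0.02 and 0.09) and lower with the mutant in Cy3 (-0.42 and -0.28). Prdm16, a coregulator of brown fat identity, had 3 arrays between -0.02 and 0.214 and replicate 1 at -1.448. Its 2 probes differed there, with one at -2.89 and the other at -0.01. Ppargc1a, the coactivator of mitochondrial biogenesis, ranged from -0.42 to 1.12, and Dio2, which makes active thyroid hormone, from -0.26 to 0.07. The farthest below 0 was Esrra, a nuclear receptor for mitochondrial genes, at -1.30, -0.82, 0.14 and -0.195 (-0.54 ± 0.33, SE). Cox8b and Cox7a1, respiratory subunits of brown fat, were at 0.27 ± 0.24 and -0.19 ± 0.11, and Zic1, a marker of the classical depots, at -0.19 ± 0.14. Elovl3 was not on the array under that symbol.

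No gene of the pathways that burn fuel passed either. Of 25 fatty acid oxidation genes none passed, and 2 had an unadjusted p under 0.05, both lower, where 3.59% of all rows were. These were Hadh, of the beta-oxidation spiral, at -0.20, -0.27, -0.35 and -0.34, and Cpt2, the inner carnitine palmitoyltransferase, at -0.32, -0.34, -0.26 and -0.21, small ratios that were even over the arrays. With recurring values left out, 6 of 21 were lower in this way and none higher, where 5.69% of all rows were lower, and 3 were lower with the arrays centred as well. Cpt1b, its outer membrane partner, was at 0.07, 0.035, -0.81 and -0.36, with the dyes apart. Of 78 genes of the respiratory chain and ATP synthase none passed, 55 were below 0, where 60.7% of all rows were, and the median was -0.13. Unadjusted, 4 were lower, all subunits of complex I, and none higher, where 3.59% of all rows were lower. With recurring values left out, 12 of 57 were lower and none higher, where 5.69% of all rows were lower. With the arrays centred as well, 2 were lower and 3 higher, where 564 of all 8589 rows had an unadjusted p under 0.05. Ndufv1 was at -0.24, -0.27, -0.30 and -0.25, the most even of them. The 20 genes of the TCA cycle had a median of -0.13, none passed and 1 had an unadjusted p under 0.05, Ogdh (-0.32 ± 0.12, SE). The median of all rows was -0.07, and the median on replicate 3 was -0.24, against -0.06, -0.035 and 0.06 on the other arrays.

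No gene that makes or stores fat passed. Of 27 genes of fatty acid and triglyceride synthesis, 3 had an unadjusted p under 0.05, all lower, where 3.59% of all rows were. Gpd1, which makes glycerol 3-phosphate, was at -1.37, -0.97, -1.27 and 0.13, with replicate 4 apart. Lpin1, a phosphatidate phosphatase, was at -0.41 ± 0.17 (SE) and below 0 on every array. Scd1, a stearoyl-CoA desaturase, was at -0.67, -0.17, -0.015 and -0.87. Fasn, fatty acid synthase, was near 0 on replicates 1 and 2, at -0.41 on replicate 3 and at 1.81 on replicate 4. Of 31 lipid droplet and adipocyte genes none passed, and the median was -0.09. Unadjusted 1 was higher and 1 lower, where 1.48% of all rows were higher and 3.59% lower. Fabp4, the adipocyte fatty acid binding protein, lay between -0.37 and -0.19 on every array (-0.24 ± 0.23, SE). Adipoq, adiponectin, lay between -0.17 and 0.16, and Lpl, lipoprotein lipase, measured by 3 probes, between -0.25 and 0.21. Plin1, the lipid droplet coat (0.21 ± 0.40), Pnpla2 (-0.31 ± 0.49) and Lipe (-0.02 ± 0.36), the lipases of fat breakdown, had wide errors. Apoe was on the upper side of every array (0.35, 0.40, 0.07 and 0.94; limma unadjusted p = 0.00286). Pparg and Lep were not on the array under those symbols.

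The genes of glucose use did not pass the test either. Slc2a4, the insulin-regulated glucose transporter, was at -0.25 ± 0.25 (SE), with 3 arrays below 0. Of 32 genes of glucose and glycogen use none passed. Unadjusted 1 was higher and 1 lower, where 1.48% of all rows were higher and 3.59% lower. Aldoa, aldolase A, was at -0.03, -1.28, -0.58 and -0.59, and Tpi1, triosephosphate isomerase, at 0.52, 0.73, -0.75 and 2.13. The list median of -0.05 compares with -0.07 over all rows. Cholesterol synthesis, 14 genes, had a median of 0.00019, none passed, and Mvd alone had an unadjusted p under 0.05 (1.06 ± 0.42, SE).

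Among 34 nuclear receptors Nr4a1 was the 1 that passed, and 18 of the 34 were above 0. Nr1d1, the clock repressor REV-ERB alpha, was at -3.08, -1.56, 1.02 and -0.65, with replicate 3 on the other side (limma unadjusted p = 0.0206). The 14 clock and clock output genes had a median of -0.25, and 10 of them were below 0, where 60.7% of all rows were, but none passed. That median was -0.08 without replicate 3 and -0.11 with recurring values left out, where 8 of the genes were tested. Per3 was at -0.37, -0.16, -0.61 and -0.27, below 0 on every array (limma unadjusted p = 0.0109), while Dbp, the output gene, was at 0.22, 0.28, 0.35 and -0.40. The 18 glucocorticoid response genes had a median of -0.17, and 13 were below 0, where 60.7% of all rows were. Cdkn1a, the cell cycle inhibitor p21, was at -1.14, -0.64, -1.21 and -0.78, a fitted -0.88 ± 0.18 (SE, n = 4 arrays; limma adjusted p = 0.106).

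Of 43 heat shock and chaperone genes none passed in the test of all values. Of them 31 were below 0, where 60.7% of all rows were, and 6 had an unadjusted p under 0.05, all lower, where 3.59% of all rows were. Dnaja1, a co-chaperone of Hsp70, was at -0.73, -0.45, -1.515 and -0.44, and Hsph1, the large Hsp110-type chaperone, at -1.87, -1.27, -0.93 and 0.39, with replicate 4 on the other side. Both passed with recurring values left out (limma adjusted p = 0.0148 and 0.0258), as 2 of the 33 list members tested there. Dnaja4 was even over the arrays at -0.86, -0.744, -0.61 and -0.745 (limma unadjusted p = 0.00699). Dnajb11, at -1.30 ± 0.61 (SE), was at -6.17 on replicate 4 and between -0.20 and 0.23 on the others. In the other organs, as fitted values, Dnaja1 was at -0.79 ± 0.25 in lung, -0.76 ± 0.36 in spleen, -0.51 ± 0.15 in heart and 0.04 ± 0.18 in testis. The medians of the 59 ribosomal protein genes (-0.09), the 39 proteasome genes (-0.10) and the 58 matrix genes (-0.02) lay near that of all rows, and no member passed. Unadjusted, 1 ribosomal protein gene was higher and 2 lower, where 1.48% of all rows were higher and 3.59% lower. With recurring values left out, 9 of 43 were lower and none higher, where 5.69% of all rows were lower. With the arrays centred as well, there were none in either direction. Unadjusted, 1 proteasome and 1 matrix gene were lower, where 3.59% of all rows were.

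**Figure D4:**
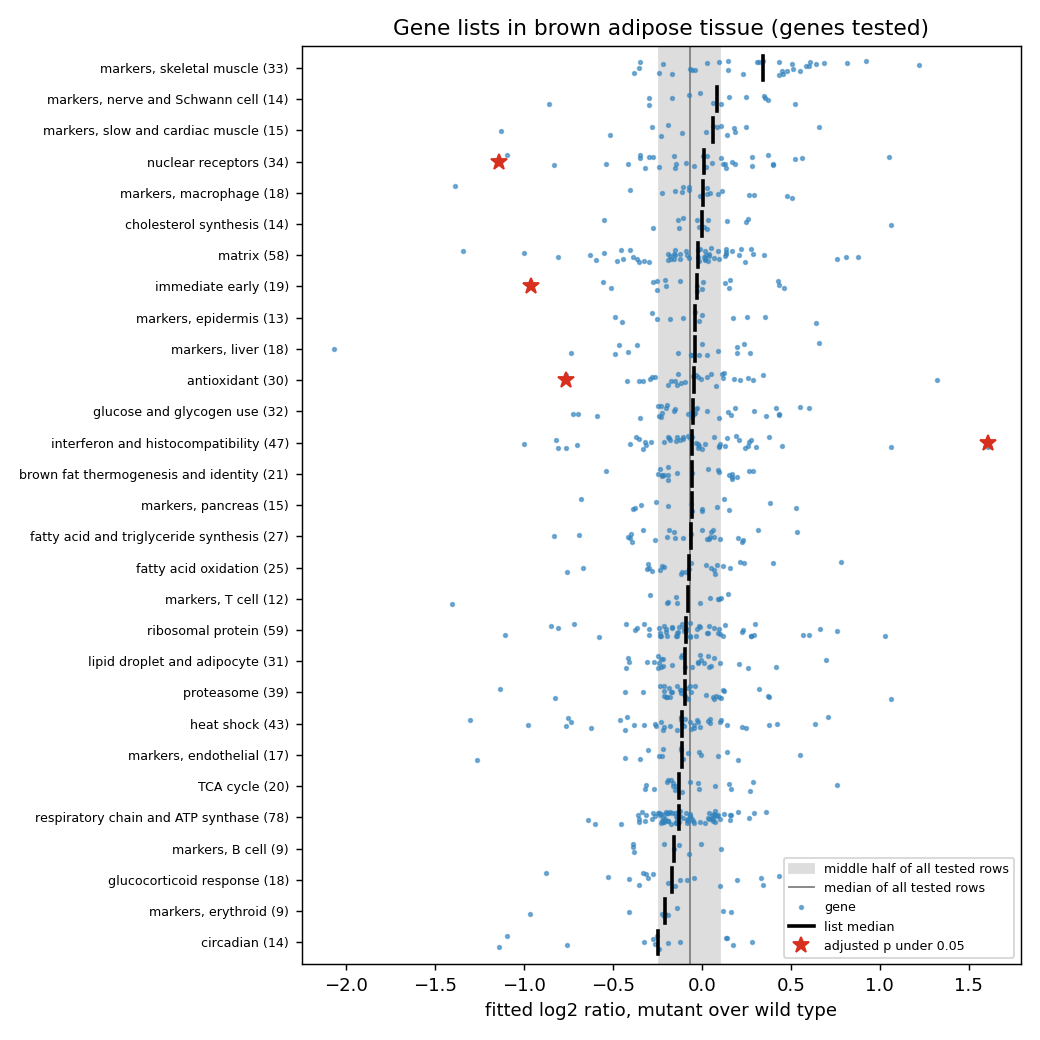
Fitted log2 ratio of every tested member (points, x axis) of the 29 gene lists (y axis, number tested in brackets), with the list median as a black bar and members past the adjusted test as red stars. The grey band is the range from the lower to the upper quartile of all rows, -0.24 to 0.10. The skeletal muscle markers have a median of 0.34, and the circadian list, at the bottom, one of -0.25.

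Markers of skeletal muscle had the highest median of the 29 lists. Of 33 tested markers 24 were above 0, the median was 0.34 against -0.07 over all rows, and 13 had an unadjusted p under 0.05 in the upward direction, where 1.48% of all rows did, and none in the downward direction. None passed limma's adjusted threshold with all values. The array medians of the list were 0.35, 0.25, 0.01 and 0.29, so it stood above the median of all rows on each array, also on replicate 3. Mylpf, a myosin light chain of fast fibres, was at 0.228, 1.15, 1.14 and 2.45. Tnnt3, the fast troponin T, was at 1.18, 1.01, 0.2535 and 0.81, and Tnni2, the fast troponin I, at 0.86, 0.72, 0.59 and -0.01. Both troponin subunits were above 0 on every array except replicate 4 of Tnni2. Casq1, the calcium store protein of fast fibres, was at 1.30, 1.14, 0.52 and 0.81, and Myh1, the myosin of fast glycolytic fibres, at 0.68, 0.56, -0.0015 and 0.515. Ckm, muscle creatine kinase, was at 0.84, 0.97, 0.63 and -0.30. Mylpf was lowest on replicate 1 and highest on replicate 4. In the other genes given here replicates 1 and 2, with the mutant in Cy5, were the highest. The lowest array was replicate 3 for some and replicate 4 for others. The size of these ratios thus differed with the dye. The mean was 1.22 with the mutant in Cy5 and 0.67 with it in Cy3 for Casq1, 0.79 and 0.29 for Tnni2, and 0.62 and 0.26 for Myh1. With recurring values left out, Casq1 (0.92 ± 0.12, SE; limma adjusted p = 0.000929) and Myh1 (0.47 ± 0.08; adjusted p = 0.018) passed, 2 of 22 markers tested there, and 11 had an unadjusted p under 0.05, all higher, against 1.73% of all rows.

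Not every muscle gene lay on that side. Mb, myoglobin, was at -0.82, -1.67, 0.515 and 0.94, with the dyes apart, Pvalb, parvalbumin, lay between -0.32 and -0.17 on its 3 arrays, and Ttn, titin, was at 0.15 ± 0.15 (SE). The 15 markers of slow and cardiac muscle had a median of 0.06, with none higher and 1 lower (Tnni3) at an unadjusted p under 0.05. The number of muscle markers with an unadjusted p under 0.05 was 1 without array weights and 5 without replicate 1 or without replicate 2. The list median stayed between 0.254 and 0.835 over all settings run. The 0.835 came from centred and scaled arrays, each divided by its relative spread, so it is not in the same log2 unit. The part of muscle tissue or muscle RNA in any other difference between the pools was not tested. In skeletal muscle itself, Casq1 was at 0.24 ± 0.48 (SE), Mylpf at -0.19 ± 0.72 and Tnnt3 at -0.27 ± 0.54. Ratios of this size or larger, in both directions, also occurred in lung. There Mylpf was at 2.24 ± 0.56 (3 arrays), Tnnt3 at -1.73 ± 0.40, Myh1 at -1.50 ± 0.24 and Casq1 at -0.75 ± 0.36. Of markers of other cell types, none passed limma's adjusted threshold in the lists for T cells (12 tested), B cells (9), macrophages (18), erythroid cells (9), endothelium (17), nerve (14), epidermis (13), pancreas (15) and liver (18). Their medians lay between -0.205 and 0.09. Each of these lists had at most 2 members with an unadjusted p under 0.05, where 5.07% of all rows had one.

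**Figure D5:**
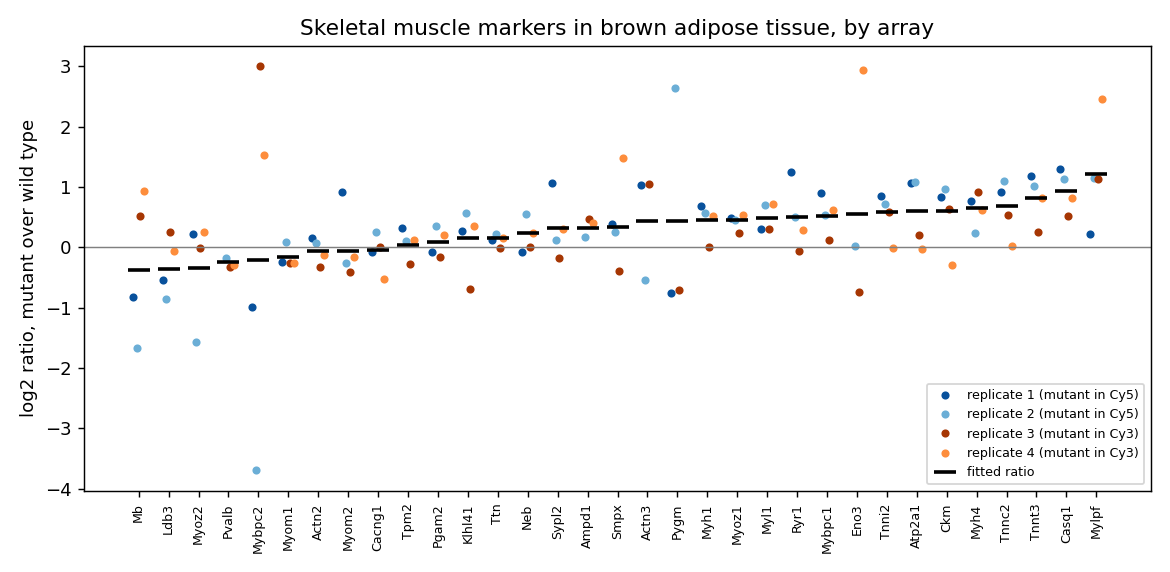
Log2 ratio of mutant over wild type (y axis) of the 33 skeletal muscle markers (x axis, in the order of the fitted ratio). Circles are single arrays, coloured as to the dye of the mutant pool, and black bars are fitted ratios. From Mylpf to Myh1 most arrays lie above 0, while Mb and Mybpc2 change sign with the dye.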

How the data were processed

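Each array received indirectly labelled cDNA made from 20 µg of RNA of each pool, per the labels' protocols. The authors deposited 1 log2 ratio per probe and array. The log base was read as 2, because most recurring values (shared to 3 decimals by at least 10 probes of an array, and at least 3 times as frequent as the mean of 20 neighbouring steps) are the log2 of small whole-number ratios. No scanner, background correction, normalization or filter is named in the sources used here, and no intensities were used. Values above 12 in size (1003 of these 4 arrays, all at 16.44 or more, where the next size below was 6.88) were treated as missing. Arrays were not centred, and their medians lay between -0.24 and 0.05. Of 20205 probes, 13891 have 1 symbol in the platform annotation, 5 several and 6309 none. The Entrez number of 13855 was found in RefSeq, which changed no symbol. Probes of 1 symbol were averaged.

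One limma 3.58.1 model (R 4.3.3; lmFit, arrayWeights, eBayes) held all 24 arrays, with 6 organ coefficients and 1 dye term. Weights were 2.07 to 3.65 here and 0.183 to 3.62 elsewhere. P-values of the tested rows had Benjamini-Hochberg adjustment with a threshold of 0.05. The procedure was also run on simulated data with independent normal errors. These held no dye effect and no recurring values, so that run does not cover either. The number of arrays limits the precision. Named are the NR4A genes, rows past the test, the 10 largest ratios with 1 sign where fewer than 5 pass in a direction, up to 4 list members past the test, 18 fixed genes of brown and white fat, and the 10 genes that differ most from the other organs. Other list members, and genes called with recurring values left out, were named after their values were seen. The members, lists and tests were chosen with earlier results of these data known. The settings of 18 alternatives and 9 added ones are given in the closing section.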

Additional observations from a re-analysis of the deposited data

Results flagged for a closer look

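Of 44 named genes with 4 values, 3 had an array that stood apart from the others, where chance gives about 1 in 20. These were Prdm16 on replicate 1 (-1.448, the others between -0.02 and 0.214), Mknk2 on replicate 3 (-0.95, the others between -0.53 and -0.475) and Vim on replicate 3 (-0.82, the others between -0.39 and -0.35).

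The ratio in brown adipose tissue differed from the mean of the other organs, by limma's test of the difference, in 12 rows named by the rule. It was higher for Ctrl (1.77), Ifi27l2a (1.58), Tnni2 (1.38), the unnamed probe (1.12) and Zg16 (0.98). It was lower for Glul (-0.92), Psmd13 (-0.93), Polr2f (-0.86), Jun (-0.83), Gemin2 (-0.81), Asic2 (-0.72) and Ago2 (-0.69). Timp3 (-0.69), Dbp (-0.81) and Map4 (-1.03), named after their values were seen, also differed in the same test. The other organs held the larger ratio for most of these. The unnamed probe was at 0.78 in brown adipose tissue and at -2.03 in lung, and Tnni2 was at 0.58 against -1.96 in lung and -2.00 in spleen.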

How the results depend on the processing

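The 6 calls rested on the array weights and on replicate 2. Without weights the count was 0, and it was 0 with the tissue fitted alone with or without a dye term (limma unadjusted p under 0.05 for 104, 566 and 475 rows). It lay between 0 and 5 with 1 array left out, and between 5 and 9 in the other planned settings. Centred arrays gave 5, 3 higher and 2 lower, and centred and scaled arrays 5, 2 higher and 3 lower, against 2 higher and 4 lower. With recurring values left out it was 22, with 4 shared rows. Together with that choice it was 0 without weights or for the tissue alone, 16 with centred arrays, 28 with 1 dye term for each organ, and 6, 11, 5 and 16 without replicates 1 to 4. The 44 differences from the other organs became 1 without weights, 25 with 1 weight for each organ, 19 with 1 dye term for each organ, 18 centred and 4 centred and scaled, and between 12 and 31 with 1 array left out. With recurring values left out they became 45, 2 without weights, 26 with 1 dye term for each organ, and 21, 27, 23 and 35 without replicates 1 to 4. Nr4a1 stayed between -1.80 and -1.06 in every setting run. The -1.80 came from centred and scaled arrays, each divided by its relative spread, so it is not in the same log2 unit. In the other settings Nr4a1 lay between -1.225 and -1.057. Its call was lost without weights (-1.136), with the tissue alone (-1.136 with or without a dye term), with extreme values kept (-1.225) and without replicate 2 (-1.118). With recurring values left out the call was lost without weights (-1.136) or with the tissue alone (-1.136). With 1 array left out the ratio ranged from -1.20 to -1.091, and from -1.203 to -1.057 with recurring values left out too. The cause of these changes was not tested.

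With the replicate number as a block, 7 rows passed in brown adipose tissue and 26 differed from the other organs. The median correlation of an array with the same-numbered arrays of other organs, after removal of organ means, was 0.06 to 0.09. For replicates 1 to 4, 2, 2, 2 and 1 of 5 pairs exceeded 0.1, the highest at 0.271. The numbers were therefore not read as pairing. Dye was not removed first, so these correlations can also hold dye effects. No test separates the animals of a pool, and signal over background was not analysed here.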

Other observations

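The unnamed probe that passed the test was at 0.52 ± 0.28 (SE) in skeletal muscle, near 0 in spleen and testis, and at -2.03 ± 0.21 in lung. It held no recurring value. Map4, a microtubule protein that differed from the other organs (-1.03 ± 0.24, SE; limma adjusted p = 0.0493), was at -0.63 in brown adipose tissue and at 0.41 on average elsewhere. Map4, Mknk2 and Timp3 were named after their values were seen. Mknk2 lay at -0.48 ± 0.21 in lung, -0.44 ± 0.31 in spleen, -0.50 ± 0.13 in heart and 0.93 ± 0.29 in skeletal muscle, beside -0.60 ± 0.12 in brown adipose tissue. Timp3, at -0.55 ± 0.13 in brown adipose tissue, was at -0.47 ± 0.14 in heart and -0.33 ± 0.23 in lung, but at 0.76 ± 0.33 in spleen, 0.49 ± 0.31 in skeletal muscle and 0.27 ± 0.17 in testis, and it differed from the mean of the other organs (-0.69 ± 0.16; limma adjusted p = 0.0457).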
